A study of Homo sapiens with 6 samples.

Results

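The MYC and MAX network is described here in A549 cells (a human lung adenocarcinoma line) with and without silencing of METTL3, the catalytic subunit of the m6A writer complex. The members were found by gene symbol in the count table and comprised MYC, MYCN, MYCL, MAX, MXD1, MXD3, MXD4, MXI1, MNT and MGA. These were 10 of the 57781 listed genes, and 9 of the 10 were among the 15125 genes with enough counts to be tested. RNA was sequenced from 3 libraries of vector-control cells, whose genotype label is wild type, and 3 libraries of cells carrying short hairpin RNA against METTL3 (shMETTL3). The cells were grown in DMEM with serum, and no drug, time point or other agent is given for either group. The paper states in general that its experiments were repeated independently, but for these 3 libraries of a group neither it nor the labels name separate cultures or hairpins, so that the p-values measure only the spread between these libraries, which may be technical.

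MYC, MYCN and MYCL are transcription factors that bind DNA only as dimers with MAX, at the E-box motif CACGTG and close variants of it, and activate genes of growth, ribosome production and metabolism. The MXD proteins, MXI1 and MNT compete for the same partner and the same motif and recruit repressor complexes, and MGA, a very large MAX partner, brings MAX into a Polycomb complex. MYC is amplified or overproduced in many lung adenocarcinomas, and MYC mRNA is known to carry m6A and to be bound by the IGF2BP readers.

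The library totals ran from 14931426 to 19108928 counts. At these depths 3 counts, taken as the floor of detection, stood at 0.150 to 0.189 CPM (counts scaled to a common library size), a limit that covers counting error only. All CPM values were scaled by TMM, edgeR's correction for RNA composition, and calls rest on edgeR's quasi-likelihood test with a Benjamini-Hochberg adjusted p below 0.05. METTL3 itself fell to 38.8% of its vector level (49.9 ± 0.676 CPM against 19.4 ± 0.525 CPM, SD, n = 3 each), with a log2 fold change of -1.36 (edgeR adjusted p = 4.57e-16). Levels were summed over 9 genes listed as markers of A549 cells, all detected. The sum ran from 16639 to 17390 CPM in vector and from 9919 to 10259 CPM in shMETTL3 libraries. The list holds KRT8, KRT18, KRT19, EPCAM and CDH1 beside the enzyme genes AKR1B10, AKR1C1, ALDH3A1 and NQO1. Of the 9 genes, 8 were lower and 1 was higher. EPCAM and KRT19 fell furthest, with log2 fold changes of -2.73 and -2.41 (edgeR adjusted p = 7.8e-23 and 9.9e-21). AKR1C1 rose by 0.21 on the log2 scale (edgeR adjusted p = 0.000532). The summed level of the immune markers ran from 0.334 to 1.04 CPM in vector and from 5.94 to 7.12 CPM in shMETTL3 libraries, nearly all of it CD14, while CD3E and MS4A1 were at 0 in every library. The summed level of the fibroblast markers ran from 6.46 to 9.87 CPM and from 14.3 to 14.7 CPM. It was mostly COL1A1 (means 5.64 and 10.5 CPM, edgeR adjusted p = 3.47e-06) and LUM (2.26 and 3.07 CPM, edgeR adjusted p = 0.0621). COL1A2, COL3A1, DCN and PDGFRB had too few counts to be tested. The summed level of the endothelial markers ran from 0 to 0.123 CPM and from 1.40 to 1.95 CPM. This was nearly all CDH5 (0, 0 and 2 counts in vector and 30, 28 and 30 in shMETTL3 libraries), while VWF was at 0 throughout and PECAM1 was not analysed here. The part of these markers in the results below was not tested.

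Of the 9 members tested, 8 were called changed, beside 66.6% of all genes tested. MYC, MYCL, MXD3, MXD4, MXI1 and MNT were lower in METTL3-silenced cells, or 6 of 9 members beside 32.9% of all genes. MXD1 and MGA were higher, or 2 of 9 beside 33.7% of all genes. MAX did not pass the test. Groups were free of overlap for 8 of the 9 members, beside 69.4% of all genes tested. The median log2 fold change of the 9 members was -0.68, while that of all genes tested was 0.0022. With 3 libraries against 3, an exact permutation test cannot give a p below 0.1, and each member other than MAX among the 9 reached this smallest value (two-sided). In bulk RNA, fewer cells of a type and less RNA per cell cannot be told apart.

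**Figure D1:**
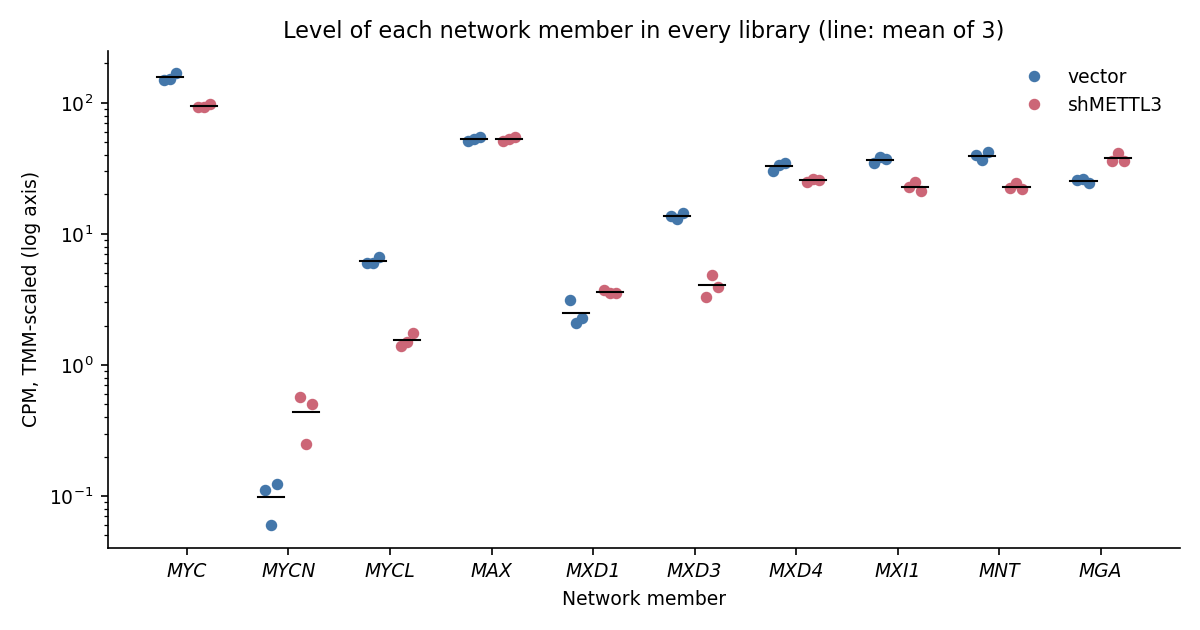
Level of each of the 10 network members in every library, in TMM-scaled CPM on a log axis, with blue points for vector and red points for shMETTL3 libraries and a black line at the mean of 3. MAX lay at the same height in both groups (52.9 and 53.1 CPM), MYCL and MXD3 dropped furthest, and MGA and MXD1 stood higher in the shMETTL3 libraries.

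MYC (chromosome 8, plus strand, 128747680 to 128755197 in GRCh37) was the most highly expressed member. Its level was 148, 153 and 168 CPM in the vector libraries and 93.1, 92.2 and 98.1 CPM in the shMETTL3 libraries. All 3 silenced libraries were below all vector libraries, and the gap between the groups was larger than the spread within either. The level fell from 156 ± 10.2 to 94.5 ± 3.16 CPM (SD, n = 3), or to 60.4% of vector, with a log2 fold change of -0.73 (standard error, SE, 0.055, edgeR adjusted p = 5.06e-12). A larger fall was seen for 1863 of the 4977 lower genes, so that the fall of MYC was not among the deepest. Among the 11077 genes with an average log2 CPM of at least 2, the log2 levels over the 6 libraries most like those of MYC, each centred on its own mean, belonged to LRRC45 at a distance of 0.0567, KAZALD1 at 0.0601 and RPL4 at 0.0639.

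MYCL (chromosome 1, minus strand, 40361100 to 40367928 in GRCh37), the paralogue first found in small cell lung cancer, showed the deepest fall of the network. It was counted 107, 100 and 108 times in the vector libraries and 27, 30 and 28 times in the shMETTL3 libraries. The groups were far apart, at 6.19 ± 0.373 and 1.55 ± 0.189 CPM (SD, n = 3), and the silenced cells kept 25.1% of the vector level. On the log2 scale this fold change was -2.00 (SE 0.18, edgeR adjusted p = 1.6e-10), a fall exceeded by 252 of the 4977 lower genes.

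MYCN, the neural paralogue (chromosome 2, plus strand, 16080672 to 16087129 in GRCh37), was close to the floor and had too few counts for the main test. Its counts were 2, 1 and 2 in vector and 11, 5 and 8 in shMETTL3 libraries. Every vector library was thus under the floor of 3 counts, and every shMETTL3 library was above it. Relative to effective library size, the 24 counts against 5 gave a ratio of 4.43 (95% exact interval 1.66 to 14.9, counting error only). With no filter on counts, edgeR gave a log2 fold change of 2.07 (adjusted p = 0.0189), and MYCN was then the member with the largest rise, although at 0.441 CPM it remained the lowest member in the silenced cells.

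MAX, the partner shared by all the others, was level between the groups. It stood at 50.9, 53.0 and 55.0 CPM in the vector libraries and at 51.0, 53.3 and 55.0 CPM in the shMETTL3 libraries. The 2 groups covered the same range. The silenced cells had 100.3% of the vector level, with a log2 fold change of 0.0036 (SE 0.060, edgeR adjusted p = 0.963) and an interval of 2 standard errors from -0.12 to 0.12. The exact permutation test gave p = 0.7. This level position holds relative to TMM scaling. With scaling by library size alone, which raised the median log2 fold change of all genes by 0.17, MAX had a log2 fold change of 0.18 (edgeR adjusted p = 0.0101). Of the exon bases of MAX, on chromosome 14 (minus strand, 65472892 to 65569413 in GRCh37), 13.1% are shared with FNTB on the opposite strand. FNTB had a log2 fold change of -0.32 (edgeR adjusted p = 0.00258), and whether the counting used strand is not given in the sources used here.

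The MXD proteins are the classical antagonists of MYC. Of the 4 genes measured, MXD3, MXD4 and MXI1 were lower and MXD1 was higher in METTL3-silenced cells. MXD3, which unlike the other antagonists is mostly found in proliferating cells, stood at 13.7, 12.9 and 14.3 CPM in vector and at 3.31, 4.89 and 3.97 CPM in shMETTL3 libraries. The groups did not come near each other, although the silenced libraries were the more spread in proportion to their mean. The level fell to 29.7% of vector, with a log2 fold change of -1.75 (SE 0.131, edgeR adjusted p = 4.15e-12), and 341 of the 4977 lower genes fell further. On chromosome 5 (minus strand, 176728462 to 176739758 in GRCh37), MXD3 shares 24.2% of its exon bases with PRELID1 on the opposite strand and 19.5% with RAB24 on its own strand. PRELID1 also fell, with a log2 fold change of -0.77 (edgeR adjusted p = 6.11e-10), whereas RAB24 had a log2 fold change of -0.15 (edgeR adjusted p = 0.573). The counts of MXD3 are therefore uncertain to the extent that reads of the shared exons could be assigned to either gene.

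MXI1, also known as MXD2 (chromosome 10, plus strand, 111967363 to 112047123 in GRCh37), fell by about as much as MYC. Its level was 34.8, 38.4 and 37.6 CPM in vector and 22.7, 24.7 and 21.4 CPM in shMETTL3 libraries, with no overlap. The silenced cells kept 62.1% of the vector level, with a log2 fold change of -0.68 (SE 0.074, edgeR adjusted p = 5.45e-09). MXD4 (chromosome 4, minus strand, 2249159 to 2263836 in GRCh37), fell least of the lower members. It stood at 30.3, 33.3 and 34.8 CPM in vector and at 24.8, 26.4 and 25.8 CPM in shMETTL3 libraries. All silenced libraries were lower, at 78.2% of the vector mean, and the log2 fold change was -0.35 (SE 0.072, edgeR adjusted p = 0.000112).

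MXD1 (chromosome 2, plus strand, 70124820 to 70170077 in GRCh37), the first described MYC antagonist and a gene of differentiating cells, was counted 56, 35 and 37 times in the vector libraries and 72, 71 and 56 times in the shMETTL3 libraries. In CPM the groups did not overlap, at 2.49 ± 0.549 in vector and 3.60 ± 0.113 in shMETTL3 libraries (SD, n = 3), with vector replicate 1 closest to the silenced libraries. The log2 fold change was 0.52 (SE 0.192, edgeR adjusted p = 0.0187). This call was the least secure of the network. It was lost with DESeq2 (adjusted p = 0.0563) and, in edgeR, without vector replicate 2 (0.40, adjusted p = 0.0947), without vector replicate 3 (0.45, adjusted p = 0.067) and without shMETTL3 replicate 1 (0.50, adjusted p = 0.0541).

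MNT and MGA, the large partners of MAX, changed in opposite directions. MNT, a broadly expressed repressor that occupies MAX when MYC is absent (chromosome 17, minus strand, 2287367 to 2304398 in GRCh37), was measured at 40.1, 36.5 and 42.1 CPM in vector and 22.4, 24.4 and 21.9 CPM in shMETTL3 libraries. The groups were well separated, and the silenced cells kept 58.0% of the vector level, with a log2 fold change of -0.78 (SE 0.074, edgeR adjusted p = 3.82e-10). MGA (chromosome 15, plus strand, 41913332 to 42065279 in GRCh37), stood at 25.6, 26.2 and 24.6 CPM in vector and at 35.8, 41.6 and 35.8 CPM in shMETTL3 libraries. All 3 silenced libraries were above all vector libraries. The level was 148% of vector, and the log2 fold change was 0.57 (SE 0.074, edgeR adjusted p = 1.35e-07). A larger rise was seen for 2754 of the 5090 higher genes.

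**Figure D2:**
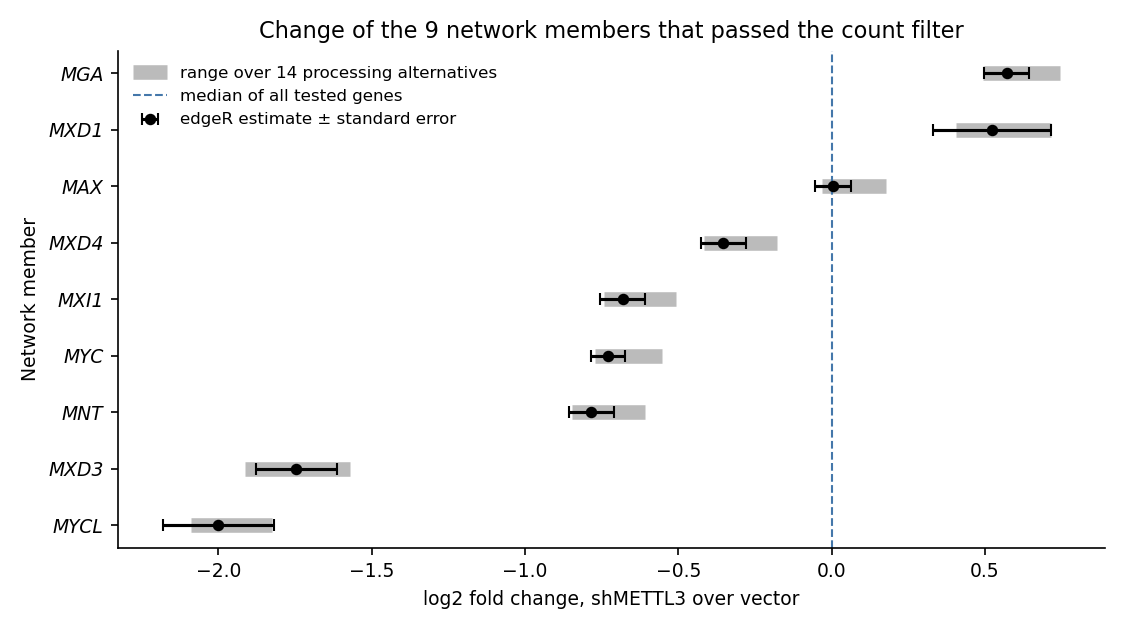
Log2 fold change of shMETTL3 over vector for the 9 members tested, with black points and bars for the edgeR estimate and its standard error, grey bands for the range over 14 processing alternatives and a dashed line at the median of all tested genes (0.0022). Each member other than MAX kept its direction over the band, and MYCL (-2.00) and MXD3 (-1.75) lay apart from the other lower members.

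To set the members beside each other, levels were divided by the union exon length of each gene. In the vector libraries MYC had the highest level, at 25.6 ± 1.67 CPM per kb (SD, n = 3), followed by MAX at 8.46 ± 0.329 CPM per kb and MXI1 at 6.25 ± 0.320 CPM per kb. MXD4 and MNT came next at 4.77 and 4.55 CPM per kb, with overlapping ranges. MXD3 stood at 2.88 CPM per kb, MGA and MYCL overlapped at 1.27 and 1.25 CPM per kb, and MXD1 and MYCN were lowest at 0.393 and 0.0356 CPM per kb. In the shMETTL3 libraries MYC remained first at 15.5 ± 0.517 CPM per kb and MAX second at 8.48 ± 0.319 CPM per kb. MXI1 and MXD4, at 3.88 and 3.73 CPM per kb, could no longer be ranked apart. MGA, at 1.88 CPM per kb, had moved above MXD3 at 0.855 CPM per kb, and MYCL, at 0.313 CPM per kb, had moved below MXD1 at 0.567 CPM per kb. Some of these ranks turned with the length. With the canonical transcript as the length, MAX and MYC overlapped in the shMETTL3 libraries at 26.4 ± 0.992 and 25.4 ± 0.849 CPM per kb. MXD3 then stood next below MAX in vector, at 12.8 CPM per kb, and was not below MGA in shMETTL3 libraries, at 3.80 and 3.09 CPM per kb with overlapping ranges.

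The mRNA of the 9 MAX partners together was lower relative to that of MAX. Their summed level was 45.1, 46.2 and 49.7 CPM per kb in vector and 28.8, 30.0 and 29.6 CPM per kb in shMETTL3 libraries. Divided by MAX, this sum was 5.55 ± 0.104 in vector and 3.48 ± 0.0896 in shMETTL3 libraries (SD, n = 3). MYC contributed 53.9, 54.2 and 55.3% in vector and 52.9, 50.3 and 54.1% in shMETTL3 libraries, and these ranges overlapped. The 4 MXD genes together contributed 30.4 ± 0.728% and 30.6 ± 1.30%, but within them MXD3 went from 6.13 ± 0.255% to 2.89 ± 0.510%, MXD4 from 10.2 ± 0.366% to 12.7 ± 0.140% and MXD1 from 0.841 ± 0.215% to 1.92 ± 0.0989%. MYCL went from 2.65 ± 0.0357% to 1.06 ± 0.120% and MYCN from 0.0754 ± 0.0245% to 0.545 ± 0.217%. MXI1 contributed 13.3 ± 0.678% and 13.2 ± 0.899%, and MNT 9.68 ± 0.575% and 8.94 ± 0.435%. MGA contributed 2.82, 2.82 and 2.46% in vector and 6.19, 6.91 and 6.01% in shMETTL3 libraries. These sums are descriptions of mRNA, carry no test and depend on the length taken for a gene. With the canonical transcript as the length, an alternative chosen after the data were seen, the sum over MAX was 3.28 and 1.95, MGA contributed 2.42% and 6.01%, MYC contributed 48.7% and 49.4%, and the MXD genes together 37.5 ± 0.595% and 34.4 ± 1.66%, without overlap.

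**Figure D3:**
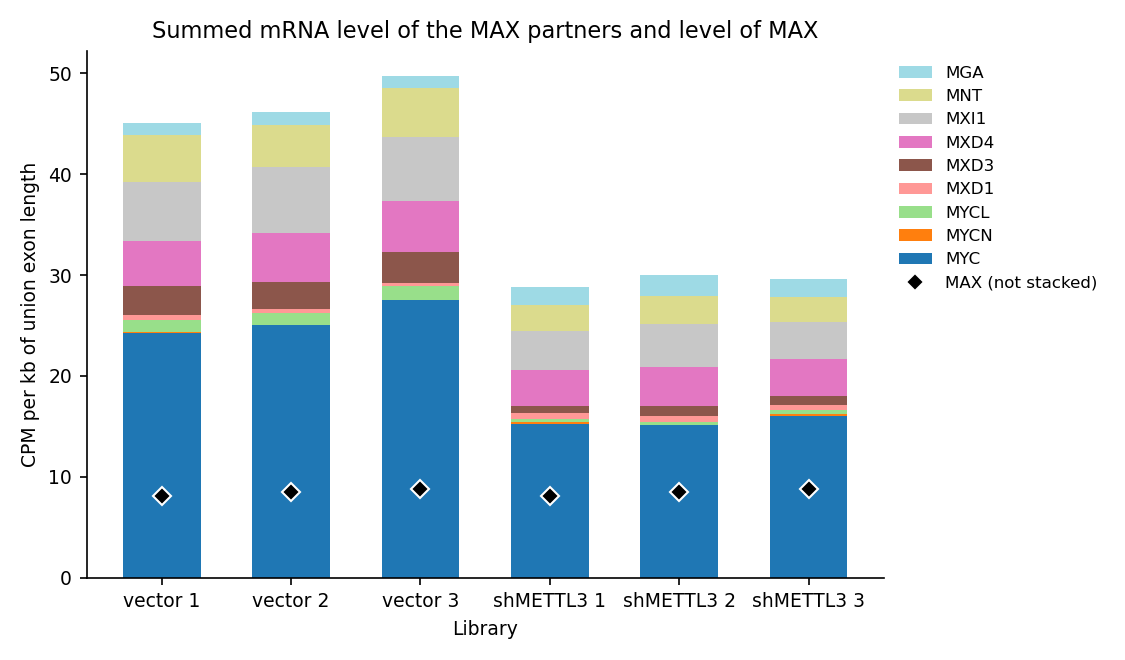
Summed mRNA level of the 9 MAX partners in each of the 6 libraries, in CPM per kb of union exon length, stacked by gene, with a black diamond for MAX on the same axis. The stacks reach 45.1 to 49.7 CPM per kb in vector and 28.8 to 30.0 CPM per kb in shMETTL3 libraries, while the diamonds stay near 8.5 CPM per kb.

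E-boxes were searched in promoter windows of RefSeq (GRCh38.p14), from 250 bases before to 50 bases after each gene's start, because MYC and MAX dimers and their antagonists bind this motif. Its 6 letters CACGTG read the same on both strands, and 2548 of 35116 windows (7.26%) held it. Every member except MYC had a window. Of these 9 members 2 held the motif (22.2%), beside 12.3% of tested genes with a window. They were MNT and MXD4, both lower in METTL3-silenced cells. Their sites are shown first, with 12 bases on either side, 5′ to 3′ on the strand of the gene, and capitals mark the E-box. The site of MNT lies at chr17:2401236-2401265 on the minus strand and that of MXD4 at chr4:2262330-2262359 on the minus strand. For comparison the sites of 4 MYC target genes described below are given. ODC1, FBL and HSPE1 were lower, and EIF4E was called higher. ODC1 has one site at chr2:10448024-10448053 and another at chr2:10447990-10448019, both on the minus strand. FBL has a site at chr19:39846356-39846385 on the minus strand and HSPE1 at chr2:197500345-197500374 on the plus strand. EIF4E has an upstream site at chr4:98929341-98929370 and a downstream one at chr4:98929188-98929217, both on the minus strand.
MNT: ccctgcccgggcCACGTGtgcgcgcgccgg
MXD4: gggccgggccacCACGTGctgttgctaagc
ODC1 upstream site: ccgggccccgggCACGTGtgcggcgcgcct
ODC1 downstream site: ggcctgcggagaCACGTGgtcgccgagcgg
FBL: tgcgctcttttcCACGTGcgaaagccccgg
HSPE1: gggtgattttttCACGTGtcgccagggccg
EIF4E upstream site: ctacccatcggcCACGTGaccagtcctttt
EIF4E downstream site: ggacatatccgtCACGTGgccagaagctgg

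The motif was present in the windows of target genes whatever their change. Of the 36 MYC target genes with a window, 20 held it (55.6%), beside 1312 of 10635 tested genes with a window (12.3%). By change, these were 9 of 15 lower target genes (60.0%), 4 of 10 higher ones (40.0%) and 7 of 11 that did not pass the test (63.6%). Among all genes with a window, 13.3% of the lower and 11.5% of the higher ones held it. A match describes the letters of the window and is not a measured binding site.

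The 44 MYC target genes are textbook targets in nucleolar, metabolic and growth functions, and 43 of them were tested. In METTL3-silenced cells 20 were lower and 12 were higher, with a median log2 fold change of -0.13 beside 0.0022 for all genes. These were 74.4% called, beside 66.6% of all genes, with 32.9% of all genes lower and 33.7% higher. With scaling by library size alone 14 were lower and 14 higher and the median was 0.043, but that of all genes was then 0.18, so that the median of the targets lay 0.13 below that of all genes in both cases. TERT, the catalytic subunit of telomerase, was the one target with a log2 fold change past -1 (-1.03, edgeR adjusted p = 0.0219), at 12, 25 and 18 counts in vector and 14, 7 and 8 in shMETTL3 libraries. It was thus lowly expressed, with overlapping groups in counts. It passed the filter through the vector group, where it is high, and was not tested with at least 10 counts in every library. Its call was lost with DESeq2 (adjusted p = 0.0564), with library size alone (-0.86), and without vector replicate 2 (-0.74), shMETTL3 replicate 2 (-0.79) or shMETTL3 replicate 3 (-1.01).

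The target genes of the nucleolus and ribosome assembly split in both directions. Of 20 tested, 9 were higher and 6 lower (75.0% called, beside 66.6% of all genes), with a median log2 fold change of 0.067. Without shMETTL3 replicate 1 there were 8 higher and 5 lower and a median of 0.12, and with library size alone 11 higher and 4 lower and a median of 0.24, beside 0.18 for all genes. The box C/D snoRNP proteins, which guide ribosomal RNA methylation, moved apart from one another. FBL, the methyltransferase of this particle, fell by 0.63 on the log2 scale (edgeR adjusted p = 2.4e-11), whereas its core partners NOP56 and NOP58 rose by 0.59 and 0.68 (edgeR adjusted p = 2.43e-11 and 6.43e-11). FBL stood at 419 ± 22.8 CPM in vector and 271 ± 6.50 CPM in shMETTL3 libraries, NOP56 at 239 ± 4.31 and 359 ± 2.86 CPM, and NOP58 at 51.9 ± 3.09 and 83.4 ± 3.08 CPM (SD, n = 3). DKC1, the pseudouridine synthase of the box H/ACA particle, rose most, by 0.77 on the log2 scale (edgeR adjusted p = 3.62e-13). Of the PeBoW complex that matures the large ribosomal subunit, BOP1 and WDR12 fell, with log2 fold changes of -0.68 and -0.49 (edgeR adjusted p = 3.32e-05 and 1.01e-07).

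Of 12 metabolic target genes tested, 8 were changed, a share like that of all genes (66.6%), with 7 lower and 1 higher, beside 32.9% and 33.7% of all genes, and a median log2 fold change of -0.29. ODC1, the rate-limiting enzyme of polyamine synthesis, was counted 5234, 4936 and 4943 times in vector and 3530, 3716 and 2856 times in shMETTL3 libraries. Its groups did not overlap in CPM either (297 ± 5.79 against 183 ± 2.73, SD, n = 3), and it fell by 0.70 on the log2 scale (edgeR adjusted p = 7.95e-13). IMPDH2, the committed enzyme of guanine nucleotide synthesis, and SHMT2, which feeds serine carbon into mitochondrial folate, both fell by 0.63 on the log2 scale (edgeR adjusted p = 7.34e-12 and 3.04e-11). PRPS2, which makes the ribose phosphate donor of nucleotides, was the one that rose, by 0.60 (edgeR adjusted p = 9.6e-09). Among the target genes of translation, chaperones and cell cycle, 7 were lower and 2 higher of 11 tested, with a median of -0.24. These were 81.8% called, beside 66.6% of all genes, of which 32.9% were lower and 33.7% higher. With library size alone 4 were lower and 2 higher (54.5% called, beside 67.8% of all genes), and the median was -0.068, beside 0.18 for all genes. With DESeq2 7 were called (63.6%, beside 61.1% of all genes), as without shMETTL3 replicate 2 or 3. The largest changes after TERT were the falls of PA2G4, a growth-regulated ribosome-associated protein (-0.71, edgeR adjusted p = 1.56e-11), and HSPE1, the mitochondrial co-chaperonin (-0.59, edgeR adjusted p = 7.85e-06). EIF4E, the cap-binding protein, and TFRC, the transferrin receptor, were higher by 0.23 and 0.22 on the log2 scale (edgeR adjusted p = 0.035 and 0.00115). The call of EIF4E was lost with DESeq2 (adjusted p = 0.0784), without vector replicate 3 (log2 fold change 0.093) and without any 1 of the shMETTL3 libraries (each 0.23).

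Genes known to be repressed by MYC also moved both ways, with 2 higher and 2 lower of 4 tested, beside 33.7% and 32.9% of all genes (66.6% called), and a median of -0.025, which was -0.053 when vector replicate 2 was left out and -0.0058 when vector replicate 3 was. CDKN1A, which encodes the cell cycle inhibitor p21, rose from 134 ± 9.99 to 252 ± 3.69 CPM (SD, n = 3), a log2 fold change of 0.91 (edgeR adjusted p = 3.07e-14), and NDRG1 rose by 0.39 (edgeR adjusted p = 1.27e-06). GADD45A and CDKN1B fell, with log2 fold changes of -0.53 and -0.44 (edgeR adjusted p = 3.23e-07 and 4.52e-08). CDKN2B was counted at most 3 times in any library and was not tested.

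MLX and its Mondo partners form a parallel branch that senses glucose and binds related motifs. The list held MLX, MLXIP, MLXIPL and the target genes TXNIP and ARRDC4. Of these 5 genes 4 were lower, beside 32.9% of all genes. The median log2 fold change was -1.40, the value of the target TXNIP. MLXIPL, which encodes the glucose sensor ChREBP, was counted 153, 122 and 174 times in vector and 53, 57 and 40 times in shMETTL3 libraries. It fell to 30.6% of vector, a log2 fold change of -1.70 (edgeR adjusted p = 4.32e-10). The arrestins TXNIP and ARRDC4, direct targets of these factors that restrain glucose uptake, had log2 fold changes of -1.40 and -1.69 (edgeR adjusted p = 4.9e-19 and 1.72e-17). TXNIP stood at 266 ± 5.70 CPM in vector and 101 ± 2.33 CPM in shMETTL3 libraries (SD, n = 3). The partner MLX had a log2 fold change of -0.23 (edgeR adjusted p = 0.00154), a call lost with scaling by library size alone (-0.051, adjusted p = 0.445), and MLXIP one of 0.033 (edgeR adjusted p = 0.67). MLXIP was called higher with library size alone (0.21, adjusted p = 0.00561), when the list had 3 lower genes and 1 higher, and without vector replicate 3 (0.13, adjusted p = 0.0367).

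Cofactors that bind MYC were changed in 6 of 13 cases, or 46.2% beside 66.6% of all genes, with 4 higher and 2 lower and a median of 0.026. Without vector replicate 2 there were 3 higher and 3 lower and the median was -0.016. Without vector replicate 3 there were 8 changed (61.5%, beside 64.7% of all genes) and the median was 0.078, and over the shMETTL3 libraries left out it ran from 0.0094 to 0.059. With scaling by library size alone 9 were changed (69.2%, beside 67.8% of all genes), and 7 of them were higher, beside 44.6% of all genes. RUVBL1 and RUVBL2, partner ATPases of chromatin remodelling and snoRNP assembly, were the ones that fell, with log2 fold changes of -0.50 and -0.65 (edgeR adjusted p = 2.53e-09 and 9.68e-11). BPTF rose by 0.40 and WDR5 and CREBBP by 0.32 each (edgeR adjusted p = 8.8e-07, 1.43e-05 and 4.69e-05). Of the 7 corepressor genes through which MXD proteins and MNT act, 57.1% were called, beside 66.6% of all genes. Of them, 3 were higher and 1 was lower, beside 33.7% and 32.9% of all genes, with a median of -0.038. These values were unsteady, since without shMETTL3 replicate 1 only 2 were called (1 higher), without shMETTL3 replicate 2 there were 3 (2 higher), and without vector replicate 3 there were 2 higher and 2 lower. Over the libraries left out, the median lay between -0.081 (vector replicate 1 left out) and 0.055 (vector replicate 3 left out). The scaffold SIN3A fell from 151 ± 6.72 to 76.2 ± 4.45 CPM (SD, n = 3), a log2 fold change of -0.98 (edgeR adjusted p = 1.04e-14), while its paralogue SIN3B rose by 0.40 (edgeR adjusted p = 3.69e-05). HDAC2 and NCOR1 had log2 fold changes of 0.19 and 0.12 (edgeR adjusted p = 0.013 and 0.0357). The call of HDAC2 was lost without vector replicate 3 (0.11) or shMETTL3 replicate 1 (0.13), and that of NCOR1 without vector replicate 2 (0.096), without any 1 shMETTL3 library (0.11 to 0.14) or with no filter (0.11).

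Among the partners of MGA in the Polycomb complex PRC1.6, 6 of 9 tested were changed, a share like the 66.6% of all genes. Of these, 5 were higher and 1 was lower, beside 33.7% and 32.9% of all genes, with a median log2 fold change of 0.22. With scaling by library size alone 8 were higher and 0 lower, where 44.6% of all genes were higher and 23.2% lower. PCGF6, the subunit that defines this complex, rose most, from 174, 161 and 145 counts to 320, 283 and 247 counts (log2 fold change 0.71, edgeR adjusted p = 6.42e-07). L3MBTL2, E2F6, RNF2 and CBX1 rose by 0.45, 0.36, 0.27 and 0.22 on the log2 scale (edgeR adjusted p = 5.36e-05, 0.000844, 0.008 and 0.000609). TFDP1, the dimer partner of E2F6, fell by 0.16 (edgeR adjusted p = 0.012), but had a log2 fold change of 0.019 with scaling by library size alone and lost its call without shMETTL3 replicate 2 (-0.12). RING1 is listed at 0 in every library.

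All 10 genes of MYC protein turnover were changed, beside 66.6% of all genes, with a median log2 fold change of -0.28. Of them 7 were lower and 3 higher, beside 32.9% and 33.7% of all genes. Without vector replicate 3 there were 8 changed (6 lower, 2 higher), and without any 1 shMETTL3 library 9 (7 lower, 2 higher). AURKA, a kinase that shields MYC proteins from degradation, fell from 94.0 ± 2.88 to 39.2 ± 1.09 CPM (SD, n = 3), a log2 fold change of -1.26 (edgeR adjusted p = 6.15e-17). CIP2A, which protects MYC from the phosphatase PP2A, and the ubiquitin ligase STUB1 also fell, with log2 fold changes of -0.59 and -0.63 (edgeR adjusted p = 5.29e-05 and 5.05e-06). FBXW7 and HUWE1, ubiquitin ligases of MYC, rose by 0.43 and 0.39 (edgeR adjusted p = 8.07e-05 and 6.05e-07). The falls of SKP2, USP28 and USP36 (-0.35, -0.22 and -0.18) were not called with scaling by library size alone, when 7 of the 10 genes were changed. USP36 also lost its call without vector replicate 3 (-0.11), and the rise of SET (0.12, edgeR adjusted p = 0.043) was lost without vector replicate 3 (0.069), without any 1 shMETTL3 library (0.11 to 0.13) or with no filter (0.10). MYC protein was not measured in these libraries.

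Among 6 proteins that bind MYC mRNA, 4 were lower and none was called higher, with a median log2 fold change of -0.45. The share called, 66.7%, was that of all genes (66.6%), of which 32.9% were lower. The m6A reader IGF2BP3 was counted 526, 479 and 472 times in vector and 308, 246 and 235 times in shMETTL3 libraries. It fell by 1.02 on the log2 scale (edgeR adjusted p = 4.92e-11), to 49.5% of vector, and every silenced library was below every vector library. IGF2BP2 fell by 0.75 (edgeR adjusted p = 2.26e-08), whereas IGF2BP1 had a log2 fold change of -0.086 (edgeR adjusted p = 0.186). HNRNPD, which binds AU-rich elements, and KHSRP fell, with log2 fold changes of -0.65 and -0.25 (edgeR adjusted p = 4.43e-12 and 0.000387). The fall of KHSRP was not called with scaling by library size alone.

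The neighbours of MYC on chromosome 8 did not follow a single direction. Of the 8 genes tested, 5 were lower and 3 higher, beside 32.9% and 33.7% of all genes (66.6% called), with a median log2 fold change of -0.47. PVT1, the long non-coding RNA gene beside MYC, was counted 368, 337 and 355 times in vector and 310, 318 and 273 times in shMETTL3 libraries, and fell by 0.35 on the log2 scale (edgeR adjusted p = 0.000497), a call lost with scaling by library size alone (-0.17, adjusted p = 0.0631). FAM84B and SQLE had log2 fold changes of -1.32 and -1.31 (edgeR adjusted p = 7.25e-18 and 4.88e-18), further than MYC itself, and ASAP1 rose by 0.80 (edgeR adjusted p = 5.66e-13). GSDMC, near the floor with 2, 7 and 5 counts in vector and 11, 16 and 15 in shMETTL3 libraries, was called higher (log2 fold change 1.45, edgeR adjusted p = 0.00896), but not without vector replicate 1 (1.05). Only its shMETTL3 libraries exceed 10 counts, so that it passed the filter through the group where it is high, and with at least 10 counts in every library it is not among the 7 neighbours tested.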

How the data were processed

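The authors mapped the reads to hg19 and deposited counts per gene and library, without normalization. The submitters' processing notes name cutadapt 3.0, HISAT2 2.2.1, SAMtools 1.13 and HTSeq 0.13.5, whereas the paper names other versions of the aligner and counter. The annotation and the strand setting are not given in the sources used here. These counts were tested in edgeR 4.0.16 (R 4.3.3): filterByExpr kept 15125 genes, TMM scaled the libraries, and glmQLFit with glmQLFTest compared the groups in a model without covariates. P-values were adjusted by Benjamini-Hochberg over all tested genes, and a standard error is the unshrunk coefficient divided by the root of F. For single members, log2(CPM + 0.1) was set in an exact permutation test, two-sided. Exon lengths, positions and overlaps came from GENCODE release 44 on GRCh37, and promoter windows from RefSeq (GRCh38.p14). No gene was matched by its date-like name, of which the table holds 27.

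Groups and replicate numbers came from the sample titles. The members and the gene lists were chosen with earlier results of these data known. Genes were named if they were members, belonged to a list of at most 10 genes, or were among the 3 largest rises or falls of a longer list; where fewer stand out, fewer are named, and some listed genes are not reported here. Of the genes that share exons with a member, FNTB, PRELID1 and RAB24 are named beside the values they touch. Other members and METTL3 also share exon bases with genes not named here. The largest such share is 12.2% of MNT, with a non-coding RNA gene on the opposite strand. Among the markers, CD14, CDH5, EPCAM, KRT19, AKR1C1, COL1A1 and LUM were singled out after their values were seen. The genes most like MYC were those with the smallest Euclidean distance of centred log2 CPM. Alternatives covered the scaling (RLE, upper quartile, library size alone), the filter (none, or 10 or more counts per library), the tool (DESeq2 1.42.0 and voom from limma 3.58.1), the model (the replicate number as a block), the libraries (1 left out at a time), stricter thresholds, and other transcript lengths (the canonical transcript chosen after the data were seen). The functions were tested on simulated counts. Replicates of a group differed by more than sampling noise, so none was merged.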

Additional observations from a re-analysis of the deposited data

How the results depend on the processing

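Of the 126 values of the 9 tested members under 14 alternatives, 117 kept their direction and their side of the threshold. MAX, at 0.0036, turned to -0.0092 with no filter and ran from -0.032 to 0.034 when single libraries were left out. The members called higher were 3 with library size alone (MAX added), 3 with no filter (MYCN added), 1 with DESeq2, 1 at an adjusted p under 0.01, and between 1 and 2 when single libraries were left out. At an absolute log2 fold change of at least 1, 2668 genes, 2 members (0 higher, 2 lower) and 1 MYC target gene were changed. This target was TERT, which was lower but lowly expressed and lost its call under several alternatives, as given above. The median of the MYC target genes was -0.11 with upper-quartile scaling, -0.11 with at least 10 counts in every library and 0.043 with library size alone, a scaling that put the median of all genes at 0.18. The targets lay 0.13 below all genes with TMM, upper-quartile scaling and library size alone, 0.11 below with at least 10 counts and 0.20 below with no filter. Library size alone also turned HDAC1 (0.12), TFDP1 (0.019), IGF2BP1 (0.089) and ELAVL1 (0.058), and raised the share of higher genes among all called from 50.6% to 65.8%. Leaving out single libraries turned MLXIP, at 0.033 (from -0.029 to 0.13). With the replicate block, 8 members and 10111 genes were changed. The numbers were not taken to pair the samples, since correlations of same-numbered libraries were 0.052, -0.0066 and 0.033. With 3 libraries a group, MYCN, near the floor, and MXD1, with a standard error of 0.192, are known least precisely.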
